A study of Mus musculus with 30 samples.

Results

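The response of skeletal muscle (SM) to 24 h without food was measured on 9 of the 30 gene arrays of the series, 4 from fasted and 5 from fed mice, chosen by tissue and diet as labelled. The fasted SM arrays were replicates 1 to 4, and fasted SM array 5 was left out because it carried lymphocyte transcripts. All mice were male wild-type C57Bl/6 J animals of 10 to 12 weeks. Fasted mice lost access to food at the start of the light phase and were killed 24 h later, and the fed controls kept free access to chow over the same hours. White adipose tissue (WAT) from beside the testis and liver (LIV) of mice of the same 2 diets filled the other arrays, with a separate array for each mouse and tissue. SM was taken from the thigh. Levels are log2 signals, so a difference of 1 is a doubling, and changes are fasted minus fed. RNA came from whole pieces of muscle, so more cells of a type and more RNA per cell cannot be told apart.

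Muscle holds most of the protein of the body and releases amino acids in a fast, when insulin falls and glucocorticoids rise. Transcription factors of the FoxO family, held out of the nucleus by insulin signalling, switch on ubiquitin ligases and autophagy genes, and the glucocorticoid receptor acts on many of the same genes. At the same time the fibres turn from glucose to fatty acids, and the kinase complex mTORC1, which drives protein synthesis in the fed state, is restrained.

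The muscle label was borne out by the markers. The mean of 12 muscle fibre markers, such as Acta1 (skeletal actin) and Ckm (muscle creatine kinase), lay at 12.16 to 12.30 in fasted SM arrays 1 to 4 and at 12.20 to 12.30 in fed SM, against 4.79 to 5.07 in WAT and 4.48 to 4.73 in LIV. Fasted SM array 5 stood apart. Its mean correlation with the other arrays of its group was 0.980, against 0.991 to 0.992 for the other fasted arrays, and its 7 measured lymphocyte markers averaged 7.89, against 3.82 to 4.01 in the other fasted arrays and 3.87 to 4.08 in fed SM. The study's methods set aside a fasted SM array of another number as an outlier, and the choice made here follows the lymphocyte markers.

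The pieces of muscle also differed in their content of fat and of slow fibres, and did so more within the fed group than between the groups. Adipocyte markers (9 measured, among them Adipoq and Plin1) averaged 8.16, 7.67, 7.70 and 7.18 in the 4 fasted arrays, against 9.22, 8.48, 8.99, 7.10 and 7.58 in the 5 fed arrays. Slow-fibre markers (7 measured, among them the slow myosin Myh7) averaged 8.66, 9.86, 9.42 and 8.34 in fasted SM, against 10.12, 10.21, 8.42, 5.39 and 7.14 in fed SM. Fed arrays 4 and 5 were the lowest of the fed group in both. Of the adipocyte markers 3 were called lower and 0 higher in fasted SM, and of the slow-fibre markers 0 were called in either direction in limma, and at an unadjusted p under 0.05 the numbers were 0 higher and 4 lower for the adipocyte and 0 and 0 for the slow-fibre markers. Fast-fibre markers differed little, at 12.25 to 12.42 in fasted SM and 12.36 to 12.47 in fed SM. Fasted array 1 had more smooth muscle RNA (marker mean 7.73) than the other fasted arrays (6.01 to 6.52) and fed SM (5.98 to 6.27).

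**Figure D1:**
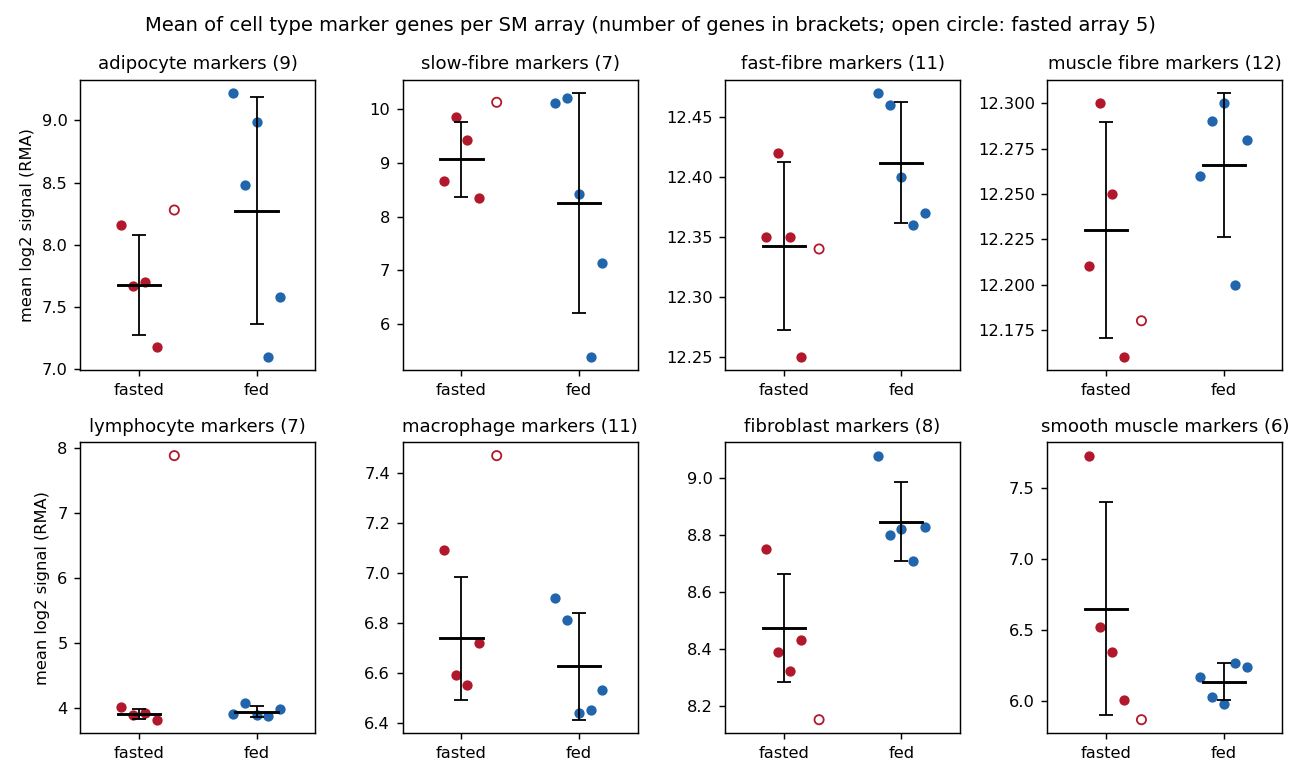
Mean log2 signal of 8 sets of cell type markers in each SM array, fasted on the left and fed on the right of each panel, with the mean and SD of fasted arrays 1 to 4 and of fed arrays 1 to 5 and a separate axis for each panel. The open circle is fasted array 5, at 7.89 for the lymphocyte markers, and the fed arrays spread from 5.39 to 10.21 for the slow-fibre markers.

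Fasting changed the level of 2550 of 18781 genes in SM, 13.6% of those tested, at an adjusted p under 0.05 and at least 1.3-fold in limma. Of these, 1464 were higher in fasted SM (7.8% of all genes) and 1086 lower (5.78%). Of the probe sets 6.35% were higher and 5.52% lower. At least 2-fold changes numbered 167 upward and 122 downward, and at least 4-fold changes 18 upward and 13 downward. The 4 fasted and the 5 fed arrays did not overlap for 91.3% of the raised and 80.8% of the lowered genes, against 22.9% of all genes. When the adipocyte marker mean of each array was put in the model, 2206 of the calls were kept, and 7.5% of all genes were called higher and 5.45% lower. With the slow-fibre mean 2425 were kept, with 7.91% of all genes higher and 6.11% lower. Fed arrays 4 and 5 were lowest in both means, and each fit brought calls among the markers of the other content. With the adipocyte mean all slow-fibre markers but Myl3 (0.62, adjusted p = 0.157 in limma) were called higher. Myl2 changed by 2.67 (adjusted p = 0.000115, against 0.221 without that mean). With the slow-fibre mean Adipoq was called lower (-0.97, adjusted p = 0.00273, against 0.111 without). A fit with 1 mean thus does not separate fat from slow-fibre content. With both means together 1577 were kept, 1143 genes were called higher (6.09%) and 649 lower (3.46%), and the median standard error was 0.135, against 0.088 without covariates. With fasted array 5 included, 2209 calls were kept, and 7.26% of all genes were higher and 6.07% lower. With fasted array 1 left out in place of array 5, 1423 genes were higher (7.58%) and 1230 lower (6.55%), and 364 of the 2550 calls were lost.

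The largest rise was that of Depp1, a regulator of autophagy induced by FoxO factors. Depp1 was at 10.88, 11.31, 11.13 and 11.21 in fasted SM, against 6.43, 6.66, 6.36, 6.97 and 6.21 in fed SM, a change of 4.61 ± 0.17 (SE; adjusted p = 2.87e-16 in limma), or 24.4-fold. The stress-induced mTORC1 inhibitor Ddit4 followed, at 9.94, 10.20, 10.06 and 10.62 in fasted SM, against 6.17, 6.05, 6.73, 5.91 and 5.43 in fed SM. Its change was 4.15 ± 0.20 (adjusted p = 2.99e-14). Neither gene overlapped between the groups, and in each the lowest fasted array was above the highest fed array by over 3 on the log2 scale.

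Of the 12 largest rises without overlap, Cebpd, a transcription factor of the C/EBP family, changed by 3.09, and the muscle LIM protein Csrp3 by 2.68. Doc2b, a calcium sensor of vesicle release, rose by 2.58, the amino acid transporter Slc43a1 by 2.42, Odf3l2 by 2.38 and the noncoding E230001N04Rik by 2.35. Rnf39 rose by 2.23, and the interleukin-6 receptor Il6ra and the arrestin-domain proteins Arrdc2 and Arrdc3 rose by 2.16 each. The largest falls were those of Nmrk2 (-3.07), a kinase that makes NAD from nicotinamide riboside, and Ky (-2.54), a muscle protein whose loss causes kyphoscoliosis in mice. They were followed by 6430571L13Rik (-2.46), Pdzd7 and Fam78a (-2.30 each), Tnfaip2 (-2.26), Sec14l5 (-2.23), Lrrc38 (-2.17), an auxiliary subunit of potassium channels, the microRNA genes Mir1a-2 (-2.13) and Mir133a-1 (-2.04), the IGF-binding protein Igfbp5 (-2.03) and the transferrin receptor Tfrc (-2.02). The adjusted p of these 24 genes ran from 4.14e-20 for Ky to 0.000275 for Csrp3. Of the rises Doc2b, E230001N04Rik and Rnf39 averaged under 5 in fed SM (4.14, 4.66 and 4.61), and of the falls Pdzd7, Mir1a-2 and Mir133a-1 averaged under 5 in fasted SM (4.86, 3.33 and 3.72). That is the dim end of the arrays, for which no detection call was available here, so the sizes and ranks of these 6 changes are uncertain.

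**Figure D2:**
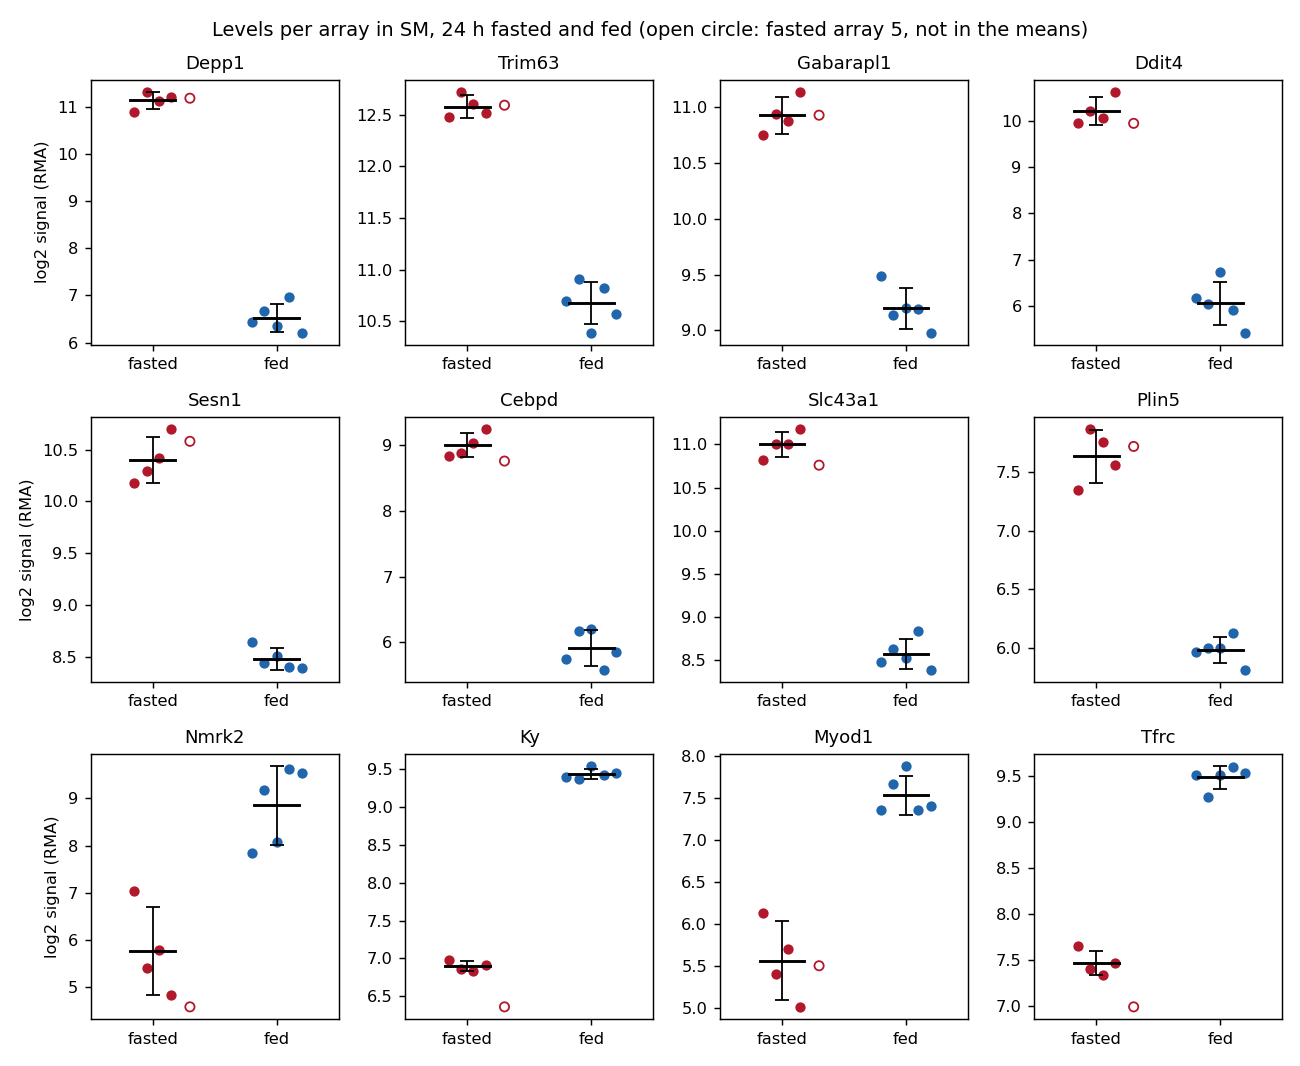
Log2 signal of 12 genes in each SM array, fasted on the left and fed on the right, with the mean and SD of fasted arrays 1 to 4 and fed arrays 1 to 5 and a separate axis for each panel. In all 12 the fasted and fed arrays do not overlap, and fasted array 5 (open circle, not in the mean) lies on the fasted side of every panel.

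The genes of muscle wasting rose together. This list and those below were chosen with earlier results of these data known, so their shares of calls are a description. Of 18 measured FoxO factors and atrophy genes, 15 were higher in fasted SM and 0 lower (16 and 0 at an unadjusted p under 0.05 in limma), against 7.8% and 5.78% of all genes, and their median change was 0.89, against 0.00 over all genes. Trim63 (MuRF1), a ubiquitin ligase of the sarcomere, was at 12.48, 12.72, 12.60 and 12.51 in fasted SM, against 10.70, 10.91, 10.39, 10.82 and 10.57 in fed SM (change 1.90 ± 0.11, adjusted p = 7.93e-13). The other classical ligase of wasting muscle, Fbxo32 (atrogin-1), was at 11.91, 12.04, 12.02 and 12.04 in fasted SM, against 10.82, 10.86, 10.54, 11.04 and 10.61 in fed SM (change 1.23 ± 0.12, adjusted p = 7.75e-09). Neither overlapped between the groups, and they stood 3.73-fold and 2.35-fold higher after the fast.

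The FoxO factors themselves were part of this group. Foxo1 averaged 9.13 ± 0.12 in fasted SM and 7.84 ± 0.08 in fed SM (SD, n = 4 and 5), and Foxo3 8.03 ± 0.14 and 6.84 ± 0.07. Foxo4 changed by 0.02 and was not called. Gabarapl1, which builds the autophagosome membrane, was at 10.75, 10.94, 10.88 and 11.14 in fasted SM, against 9.49, 9.14, 9.20, 9.19 and 8.98 in fed SM, a change of 1.72 ± 0.08 (adjusted p = 1.97e-14). Eda2r, a receptor of the tumour necrosis factor family, rose by 2.05, and Klhl38, an adaptor of ubiquitin ligases, by 1.28.

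The letters TGTTTAC, to which FoxO factors bind, occur on either strand in 3.54% of the promoters of raised genes, 1.51% of those of lowered genes, 2.97% of those of the 14723 measured genes with a promoter in the table and 3.55% of all 27025 RefSeq promoters (GRCm38.p6, 250 bases before to 50 after the start site). Of the 204 named and called genes with a promoter in the table, 6 held it. They were Trim63, Eda2r, Sesn1, Rnf39 and Igfn1, all higher in fasted SM, and Mgll, which was lower (-0.59). The stretches of all but Mgll are printed 5′ to 3′ because these genes are described here. Depp1, Foxo1 and Gabarapl1 did not hold TGTTTAC in the bases searched. In Trim63 (chr4:134314870-134315169, plus strand) the capitals mark TGTTTAC, starting 194 bases before the start site, and just before it the reverse complement of AGAACA, a short element of the glucocorticoid receptor. In Eda2r (chrX:97377160-97377364, minus strand) they mark TGTTTAC and an E-box (CACGTG), and in Sesn1 (chr10:41810556-41810623, plus), Rnf39 (chr17:36942814-36942900, plus) and Igfn1 (chr1:136006535-136006592, minus) TGTTTAC alone. AGAACA, on either strand, was in 12.7% of raised, 11.2% of lowered, 15.5% of measured and 19% of all promoters.
Trim63: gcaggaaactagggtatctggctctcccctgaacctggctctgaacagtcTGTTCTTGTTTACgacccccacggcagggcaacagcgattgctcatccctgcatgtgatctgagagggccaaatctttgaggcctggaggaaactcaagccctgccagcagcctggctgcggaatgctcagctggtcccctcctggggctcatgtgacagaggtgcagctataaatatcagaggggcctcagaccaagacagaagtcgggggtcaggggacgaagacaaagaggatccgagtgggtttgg
Eda2r: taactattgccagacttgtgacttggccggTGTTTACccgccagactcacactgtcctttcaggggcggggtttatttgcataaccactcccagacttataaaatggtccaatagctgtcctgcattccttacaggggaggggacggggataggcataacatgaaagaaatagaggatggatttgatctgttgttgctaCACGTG
Sesn1: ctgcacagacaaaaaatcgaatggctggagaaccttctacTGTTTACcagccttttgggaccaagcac
Rnf39: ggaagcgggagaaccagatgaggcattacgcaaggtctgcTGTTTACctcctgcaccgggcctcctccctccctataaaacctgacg
Igfn1: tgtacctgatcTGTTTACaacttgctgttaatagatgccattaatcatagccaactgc

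Downstream of the ligases, the proteasome changed by small steps. Of 33 measured subunits 10 were higher and 0 lower in fasted SM (24 and 0 at an unadjusted p under 0.05), with a median change of 0.25, and 32 of the 33 changes were upward. The largest was that of Psmd11, a lid subunit that promotes assembly of the 26S particle, at 10.70 ± 0.07 in fasted SM and 9.90 ± 0.06 in fed SM. Psmc2 (0.61), an ATPase of the base, and the ubiquitin receptor Psmd4 (0.57) were the next. Among ubiquitin genes and the other muscle ligases 1 of 13 was higher (7.69%) and 2 lower (15.4%), against 7.8% and 5.78% of all genes. The rise was that of Trim54 (0.42), and the falls were those of Trim55 (-0.52, adjusted p = 1.09e-05 in limma) and Znrf1 (-0.44).

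Autophagy genes rose in number next to the proteasome. Of 36 measured, 13 were higher and 3 lower, with a median change of 0.27, and with both marker means 8 were higher and 2 lower. The initiating kinase Ulk1 was at 10.16, 10.29, 10.38 and 10.50 in fasted SM, against 9.10, 9.07, 9.01, 9.26 and 9.12 in fed SM (change 1.22 ± 0.08, adjusted p = 6.09e-12). Its partner Atg13 rose by 0.67, Trp53inp1 by 1.25 and Retreg1, a receptor for autophagy of the endoplasmic reticulum, by 0.98. Genes of the conjugation machinery such as Atg5 (-0.11), Atg7 (0.18) and Atg12 (-0.10) were not called. Of 26 lysosomal genes 4 were higher and 0 lower (13 and 3 at an unadjusted p under 0.05), led by the protease Ctsl (0.94) and the proton pump subunit Atp6v1h (0.93).

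Genes known to be induced by glucocorticoids were the list with the highest share of calls. Of 20 measured, 18 were higher in fasted SM and 0 lower (18 and 2 at an unadjusted p under 0.05), with a median change of 1.11, and 18 were called higher in each of the fits with a covariate and in each fit without 1 array, where 0 or 1 was lower. The members overlap other lists (Ddit4, Cebpd, Pdk4 and Per1 are on several). Cebpd was at 8.84, 8.89, 9.03 and 9.25 in fasted SM, against 5.74, 6.17, 6.20, 5.58 and 5.85 in fed SM (change 3.09 ± 0.14, adjusted p = 4.40e-15). Fkbp5, a co-chaperone of the receptor, was at 9.72, 9.76, 9.95 and 9.93 in fasted SM, against 7.70, 8.04, 7.46, 7.69 and 7.96 in fed SM (change 2.07 ± 0.17, adjusted p = 7.19e-10). The cell cycle inhibitor Cdkn1a (p21) rose by 2.15, Arrdc2 by 2.16, the kinase Map3k6 by 1.99 and the metallothionein Mt2 by 1.63. The 2 members not called were Sgk1 (-0.37) and Dusp1 (-0.42).

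Other regulators of transcription moved with them. In the list of C/EBP, Kruppel-like and FoxO-linked factors 10 of 21 were higher and 3 lower, with a median change of 0.37. Cebpb averaged 8.52 ± 0.17 in fasted SM and 7.13 ± 0.12 in fed SM. Foxk1, a forkhead repressor, rose by 1.08 by the probe set used for the gene, but by 0.12 (adjusted p = 0.422) by another of its probe sets. Among immediate early genes 10 of 24 were higher and 1 lower, with Maff (1.96), Btg2 (1.92), Mafk (1.21) and the mRNA-decay factor Zfp36 (1.06) among the rises, while Fos (0.46) and Egr1 (-0.29) were not called and Nr4a1 (-0.78) was lower, but not with both marker means (-0.49, adjusted p = 0.417).

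The circadian clock list held changes in both directions, 7 of 18 higher and 3 lower. Per1 was at 9.11, 9.03, 9.05 and 9.16 in fasted SM, against 7.63, 7.46, 7.92, 7.79 and 7.57 in fed SM (change 1.41 ± 0.14, adjusted p = 8.82e-09). The repressor Cry2 averaged 8.94 ± 0.17 in fasted SM and 7.70 ± 0.12 in fed SM. Bhlhe40 and Bhlhe41, repressors that bind E-boxes, went the other way. Bhlhe40 was at 7.36, 7.11, 7.18 and 6.95 in fasted SM, against 8.64, 8.82, 8.78, 8.81 and 8.73 in fed SM (change -1.61 ± 0.15, adjusted p = 6.29e-09), and Bhlhe41 changed by -1.21. Core factors such as Clock (-0.16) and Cry1 (-0.09) were not called. Only 1 time of day was sampled, so the phase of the clock was not measured.

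The E-box CACGTG was found in 12.2% of the promoters of raised genes, 8.03% of those of lowered genes, 8.43% of those of measured genes and 7.24% of all promoters. It is printed in capitals for Per1 (chr11:69098743-69098828, plus strand), Bhlhe41 (chr6:145865528-145865613, minus) and the transporter Slc43a1 (chr2:84840219-84840304, plus), where it starts 166, 153 and 64 bases before the start site. The CRE (TGACGTCA) was in 3.54% of raised, 1.88% of lowered, 2.55% of measured and 1.88% of all promoters. The D-box (TTATGTAA) was in 0.411% of raised, 0.502% of lowered, 0.808% of measured and 0.955% of all promoters. A match is a description of the letters and not a site, and no test was made of the shares.
Per1: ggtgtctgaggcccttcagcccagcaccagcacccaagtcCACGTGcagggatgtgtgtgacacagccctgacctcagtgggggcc
Bhlhe41: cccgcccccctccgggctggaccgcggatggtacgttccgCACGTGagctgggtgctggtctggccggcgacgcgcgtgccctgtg
Slc43a1: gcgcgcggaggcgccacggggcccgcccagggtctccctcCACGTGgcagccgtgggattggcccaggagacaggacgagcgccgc

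The list of mTORC1 regulators and brakes on translation held changes in both directions. Of 22 genes 6 rose and 2 fell (9 higher and 9 lower at an unadjusted p under 0.05 in limma), with a median change of 0.01, and the other 14, among them Mtor (0.18) and its partner Rptor (-0.06), were not called. Sesn1, of the sestrins, which restrain mTORC1, was at 10.18, 10.29, 10.42 and 10.70 in fasted SM, against 8.64, 8.44, 8.51, 8.40 and 8.39 in fed SM (change 1.92 ± 0.09, adjusted p = 1.78e-14). Eif4ebp1 (4E-BP1), which blocks the cap-binding factor, was at 10.59, 10.47, 10.50 and 10.59 in fasted SM, against 9.22, 9.44, 9.22, 9.37 and 9.15 in fed SM (change 1.26 ± 0.07, adjusted p = 9.06e-13). The cap-binding factor itself, Eif4e, was lower, at 8.53 ± 0.16 in fasted SM and 9.01 ± 0.01 in fed SM. Sesn2 (0.71), Castor1 (0.51) and Flcn (0.66) were the remaining rises beside Ddit4. The second fall was that of Ddit4l, a relative of Ddit4 that also inhibits mTORC1, at 10.64, 10.80, 10.61 and 11.02 in fasted SM, against 11.43, 11.26, 11.42, 11.39 and 11.18 in fed SM. The groups did not overlap, and the change of -0.57 ± 0.16 (adjusted p = 0.00818) was not called with both marker means (-0.54, adjusted p = 0.2).

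Genes for making ribosomes rose in the same arrays. Of 28 genes of ribosome biogenesis 19 were higher and 0 lower (23 and 0 at an unadjusted p under 0.05), with a median change of 0.61 and 27 of 28 changes upward or at 0.00. The nucleolar GTPase Gnl3 was at 8.74, 8.86, 8.98 and 9.02 in fasted SM, against 7.76, 7.80, 7.70, 7.86 and 7.74 in fed SM (change 1.13 ± 0.09, adjusted p = 3.96e-10). Rrs1, a ribosome assembly factor, rose by 1.11, Nop14 by 0.80, Nop58 by 0.76 and Polr1b, a subunit of RNA polymerase I, by 0.62. Fbl (-0.01) and Dkc1 (0.00), which modify ribosomal RNA, were not called. Myc, a transcription factor that drives these genes, was at 7.65, 7.70, 8.03 and 8.09 in fasted SM, against 6.29, 6.88, 6.42, 6.89 and 6.75 in fed SM (change 1.23 ± 0.22, adjusted p = 0.000116), but was not called with both marker means in the model (0.91, adjusted p = 0.0905). Translation factors (4 of 27 higher, 1 lower) and aminoacyl-tRNA synthetases (3 of 17 higher, 0 lower, and 12 and 0 at an unadjusted p under 0.05) held fewer calls. The 1 lower translation factor was Eif5a (-0.41, adjusted p = 0.0119 in limma), but another of its probe sets changed by -0.07 (adjusted p = 0.407).

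Insulin and growth factor signalling held changes in both directions. Of 17 insulin signalling genes 7 were higher and 3 lower. The Rab regulator Tbc1d1 rose by 1.02, Pik3ip1, an inhibitor of PI 3-kinase, by 0.78, its regulatory subunit Pik3r1 by 0.75 and Gsk3b by 0.73, whereas the kinases Akt1 (0.07) and Akt2 (0.10) were not called. In the growth factor and myostatin list 5 of 22 rose and 5 fell. Igf1 was at 8.39, 7.90, 7.72 and 8.12 in fasted SM, against 8.98, 8.92, 8.85, 9.02 and 9.07 in fed SM (change -0.94 ± 0.09, adjusted p = 6.46e-09). Its receptor Igf1r went up, at 8.58, 8.55, 8.73 and 8.80 in fasted SM, against 7.59, 7.67, 7.71, 7.72 and 7.44 in fed SM (change 1.04 ± 0.09, adjusted p = 5.45e-10). Igfbp5 was 4.08-fold lower in fasted SM. Smad3, which carries the signal of myostatin and TGF-beta, fell by 1.23, while the receptors Acvr1b (0.75) and Tgfbr1 (0.55) rose.

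Genes of the fuel switch changed in both directions. Of 26 such genes and targets of PPAR 8 were higher and 5 lower (11 and 8 at an unadjusted p under 0.05), with a median change of 0.09. Plin5, which coats lipid droplets at mitochondria, was at 7.35, 7.87, 7.76 and 7.56 in fasted SM, against 5.96, 6.00, 6.00, 6.12 and 5.81 in fed SM (change 1.66 ± 0.09, adjusted p = 4.26e-13). Ucp3, an uncoupling protein of muscle, was at 10.60, 10.62, 10.62 and 10.65 in fasted SM, against 8.95, 9.37, 9.03, 9.77 and 9.31 in fed SM (change 1.34 ± 0.15, adjusted p = 1.36e-07). The thioesterases Acot2 (1.86) and Acot1 (1.25) and malonyl-CoA decarboxylase Mlycd (0.91) also rose. Pdk4, which shuts down pyruvate dehydrogenase, was already high in fed SM and averaged 12.56 ± 0.12 in fasted SM and 11.67 ± 0.16 in fed SM. The 2 opposing phosphatases diverged, with Pdp2 at 1.38 and Pdp1 at -0.72.

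Fatty acid oxidation itself had 3 of 21 genes higher and 0 lower (6 and 1 at an unadjusted p under 0.05), with Cpt1a at 0.67 and Eci2 at 0.73. Among lipid uptake and droplet genes 9 of 25 rose and 4 fell, and 1 was lower with the adipocyte mean in the model. The rises included Lpin2 (1.17), Plin4 (0.78), Pnpla2 (0.74), the main triglyceride lipase, and Lpin1 (0.67). The coactivator Ppargc1a was at 8.93, 9.02, 9.07 and 8.95 in fasted SM, against 9.61, 9.74, 9.61, 9.68 and 9.63 in fed SM, a change of -0.66 ± 0.19 (adjusted p = 0.00976) that was not called with both marker means (-0.74, adjusted p = 0.13), and the related Ppargc1b changed by -0.87. Of 69 respiratory chain genes 0 were called in either direction in limma, with 0 higher and 31 lower at an unadjusted p under 0.05 and changes between -0.27 and 0.11. Of 24 genes of the tricarboxylic acid cycle 0 were called, with 0 higher and 8 lower at an unadjusted p under 0.05. Of 20 genes of glycogen metabolism 0 were called, with 3 higher and 4 lower at that p, and of 28 glycolysis genes 1 was higher and 2 lower.

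Lipid synthesis genes were lower, and so were 3 of the 9 measured adipocyte markers. Of 17 fatty acid synthesis genes 7 were lower and 1 higher, with a median change of -0.47, and 7 were lower with the adipocyte mean in the model and 3 with both marker means. Fatty acid synthase (Fasn) was at 7.68, 7.53, 7.77 and 7.62 in fasted SM, against 10.44, 9.52, 9.91, 8.15 and 8.88 in fed SM. The 5 fed arrays had the same order in Fasn as in the adipocyte marker mean, but the fasted arrays did not. The change was -1.73 ± 0.28 (adjusted p = 2.78e-05) without and -1.22 (adjusted p = 3.59e-05) with the adipocyte mean. The citrate carrier Slc25a1 likewise changed by -1.19 without and by -0.79 with it. Of 21 cholesterol synthesis genes 6 were lower and 0 higher (11 and 1 at an unadjusted p under 0.05), among them Dhcr7 (-0.78), which makes the last step, and 2 were lower with both marker means.

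Of 22 amino acid transporters of the membrane 8 were higher and 2 lower (9 and 4 at an unadjusted p under 0.05). Slc43a1 (LAT3), which carries branched-chain amino acids, was at 10.82, 11.00, 11.00 and 11.18 in fasted SM, against 8.48, 8.63, 8.53, 8.84 and 8.39 in fed SM (change 2.42 ± 0.11, adjusted p = 6.30e-15). The cationic carriers Slc7a2 (1.59), Slc7a6 (1.03) and Slc7a1 (0.86) rose as well, and the aromatic carrier Slc16a10 fell by 0.47. Of 27 genes of amino acid breakdown and glutamine synthesis 2 were higher (7.41%) and 1 lower (3.7%), near the shares of all genes (7.8% and 5.78%). Glul, which makes the glutamine that muscle exports, was among the 2, at 11.81 ± 0.07 in fasted SM and 10.65 ± 0.44 in fed SM. In polyamine synthesis Odc1, its first enzyme, rose by 1.54 and spermidine synthase Srm by 0.78.

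Nmrk2 stood out among 24 genes of creatine, nucleotide and NAD metabolism, of which 2 rose and 7 fell. Nmrk2 was at 7.04, 5.41, 5.80 and 4.85 in fasted SM, against 7.85, 9.17, 8.07, 9.61 and 9.54 in fed SM, a change of -3.07 ± 0.31 (adjusted p = 2.19e-08). Its spread was wide in both groups, with fasted array 1 the highest of the fasted, and the groups did not overlap. Nampt, the main enzyme of NAD salvage, changed by 0.09 and was not called, and the NAD-dependent deacetylase Sirt1 rose by 0.45. The AMP deaminase Ampd3 rose by 0.85. With both marker means 2 of the 24 were lower.

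At the Z-disc, the anchor of the thin filaments, 9 of 30 genes were higher and 3 lower. Ky was at 6.98, 6.86, 6.83 and 6.91 in fasted SM, against 9.40, 9.37, 9.54, 9.42 and 9.45 in fed SM, a change of -2.54 ± 0.07 (adjusted p = 4.14e-20) with an SD of 0.07 in each group. Flnc, the filamin that binds the Ky protein, rose by 0.68. Igfn1, another partner of Ky, was at 4.73, 6.26, 5.64 and 6.04 in fasted SM, against 4.33, 3.95, 4.09, 5.66 and 5.22 in fed SM. The groups overlapped, and the change of 1.02 ± 0.27 (adjusted p = 0.00542) was 0.54 with the adipocyte mean, and was not called with both marker means (0.44, adjusted p = 0.377) or with fasted array 5 (0.64, adjusted p = 0.18).

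Among stretch-response genes, Csrp3 was at 10.96, 9.54, 9.87 and 9.13 in fasted SM, against 8.73, 9.03, 7.70, 5.17 and 5.38 in fed SM. Fed arrays 4 and 5, the lowest in slow-fibre markers, were the lowest in Csrp3, yet each fasted array was above each fed array, and the change was 2.68 ± 0.52 (adjusted p = 0.000275), 2.04 with the slow-fibre mean and 3.74 with the adipocyte mean. Ankrd2 was at 12.08, 11.84, 11.85 and 11.57 in fasted SM, against 11.02, 11.03, 10.29, 9.78 and 9.89 in fed SM (change 1.43 ± 0.20, adjusted p = 4.24e-06). Ankrd1 had 1 array far from the others. It was at 8.30 in fasted array 1 and at 4.75, 5.15 and 5.24 in the others, against 4.71, 4.19, 4.77, 4.32 and 4.87 in fed SM (change 1.29, adjusted p = 0.0167). Without fasted array 1 the change was 0.48 (adjusted p = 0.0183), and with fasted array 5 it was not called (1.04, adjusted p = 0.055).

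Genes of the contractile and excitable apparatus were called lower more often than higher, apart from the sarcomere list. Of 25 sarcomere genes 2 were higher (8%) and 1 lower (4%), near the shares of all genes (7.8% and 5.78%). Of 29 genes of calcium handling 5 were lower and 0 higher (12 and 0 at an unadjusted p under 0.05, and 2 lower with both marker means), among them Jph2, which couples the membrane systems of the triad (-0.69). Of 18 ion channel and membrane genes 5 were lower and 0 higher (7 and 0 at an unadjusted p under 0.05). The water channel Aqp4 was at 7.16, 7.51, 7.51 and 7.66 in fasted SM, against 9.22, 9.10, 9.53, 8.97 and 9.30 in fed SM (change -1.76 ± 0.12, adjusted p = 1.66e-11), and the potassium channel Kcnc1 (-0.81), the chloride channel Clcn1 (-0.72) and delta-sarcoglycan Sgcd (-0.70) fell. At the neuromuscular junction 5 of 23 genes were lower and 3 higher. Acetylcholinesterase Ache changed by -0.92, the deacetylase Hdac9 by -1.17, and Gadd45a, which rises after denervation, by 1.74.

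Of 27 factors that specify muscle and its fibre types 0 were called higher and 6 lower in limma (5 higher and 11 lower at an unadjusted p under 0.05). Myod1 was at 6.13, 5.40, 5.70 and 5.01 in fasted SM, against 7.36, 7.67, 7.88, 7.36 and 7.40 in fed SM (change -1.97 ± 0.15, adjusted p = 6.95e-11). Mrtfa, a coactivator of serum response factor, was at 6.05, 5.96, 5.79 and 6.15 in fasted SM, against 7.56, 7.61, 7.71, 7.85 and 7.94 in fed SM (change -1.75 ± 0.09, adjusted p = 6.31e-14). Maf, a factor of fast fibres, changed by -0.89, whereas Myog (0.18), Myf6 (0.16) and Srf (-0.01) were not called.

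The precursor genes of the microRNAs of muscle were lower as well. The array holds probe sets at both loci that encode miR-1a and miR-133a, and these 4 were lower in fasted SM, as were Mir181a-2 and Mir181b-2, which lie next to each other on chromosome 2. Mir133a-2, Mir1a-1, Mir181a-2 and Mir181b-2 are outside the rule for named genes and were chosen after their values were seen. Mir133a-2 was at 5.11, 5.32, 4.87 and 4.09 in fasted SM, against 6.66, 6.77, 6.52, 7.11 and 6.67 in fed SM (change -1.90 ± 0.15, adjusted p = 2.06e-10). Mir181b-2 was at 4.81, 4.95, 5.53 and 4.90 in fasted SM, against 6.94, 6.68, 6.96, 7.07 and 7.07 in fed SM (change -1.90 ± 0.13, adjusted p = 7.16e-12). Mir1a-1 averaged 3.46 in fasted SM and 5.30 in fed SM, Mir181a-2 4.03 and 5.65, Mir1a-2 3.33 and 5.46, and Mir133a-1 3.72 and 5.76. With Mir133a-2 (4.85), these averaged under 5 in fasted SM, the dim end of the arrays, so the sizes of their falls are uncertain. Whether the probes read the precursor or the mature RNA was not tested. The mature miR-181 sequences of the locus (RefSeq, GRCm38.p6, plus strand, chr2:38852741-38852763 and chr2:38853845-38853868) share the seed, bases 2 to 8, shown in capitals.
mmu-miR-181a-5p: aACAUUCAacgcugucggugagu
mmu-miR-181b-5p: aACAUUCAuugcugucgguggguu

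**Figure D3:**
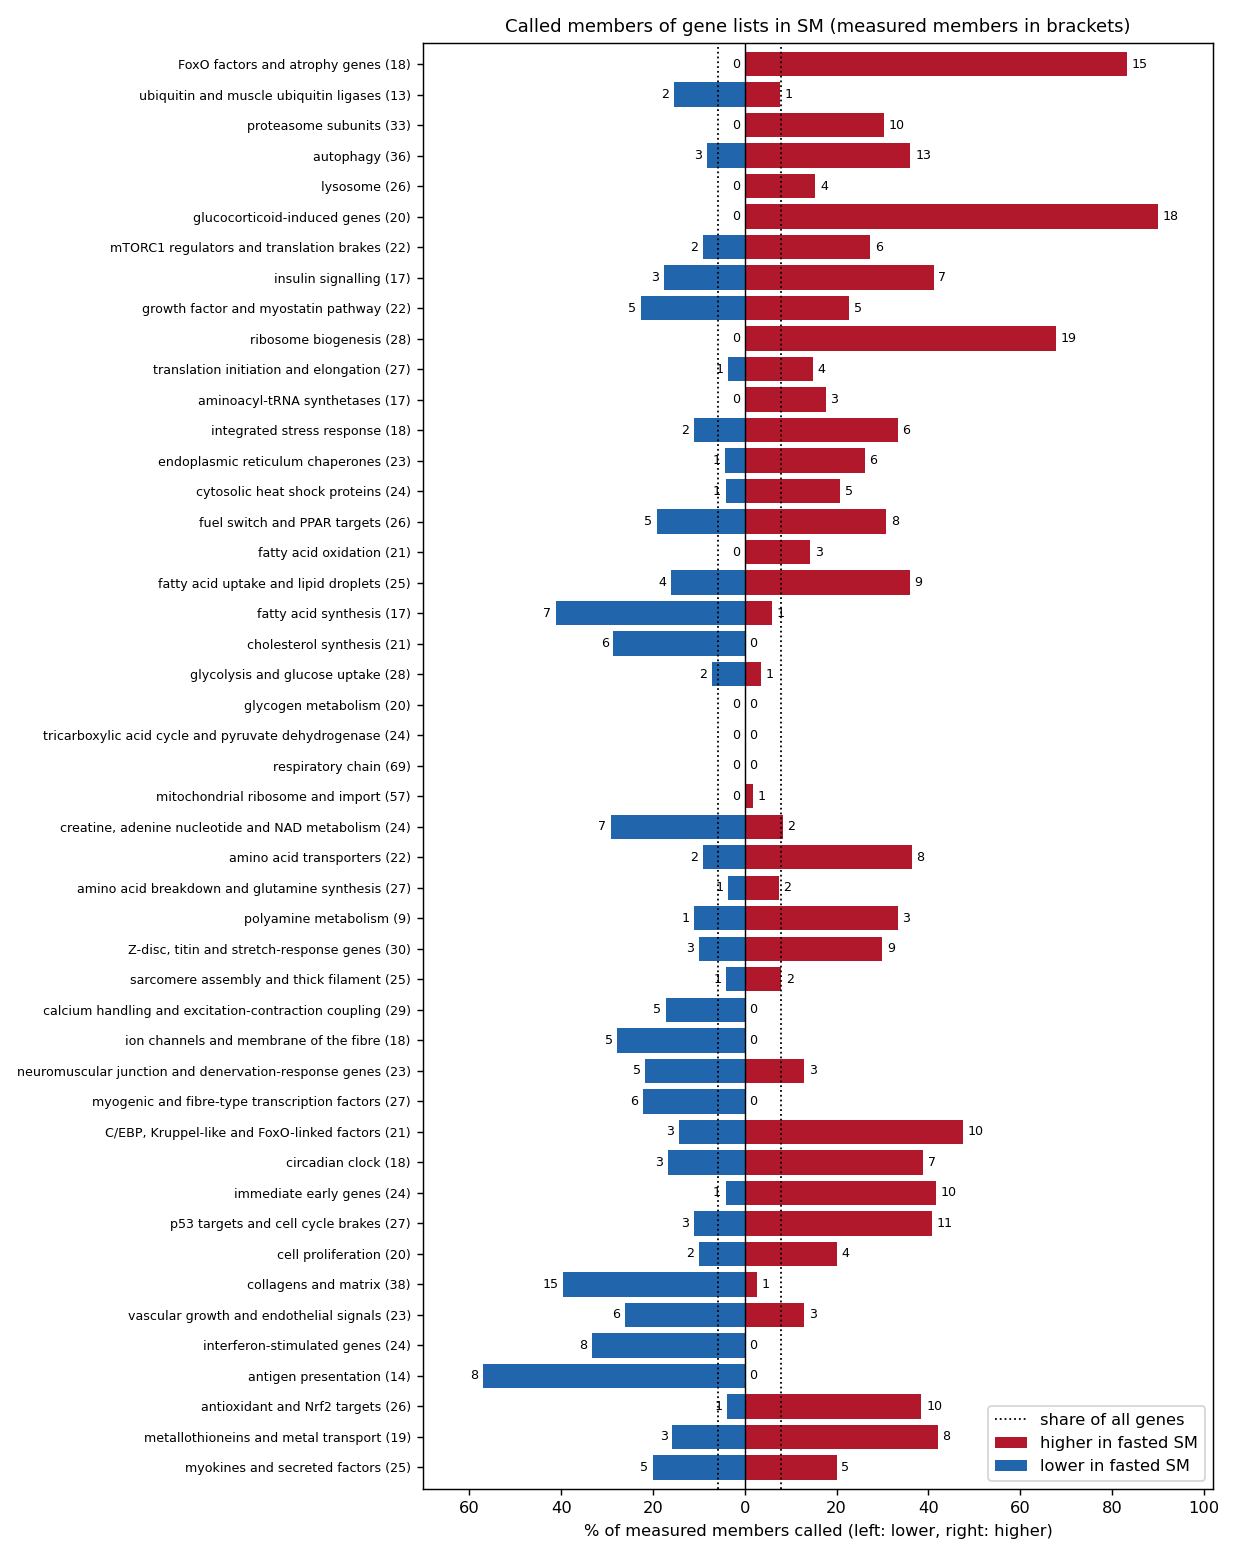
Share of the measured members of 47 gene lists that were called higher (right, red) or lower (left, blue) in fasted SM than in fed SM, in percent, with the number of called members beside each bar and dotted lines at the share of all genes (7.8% and 5.78%). The glucocorticoid-induced genes (18 of 20) and the FoxO and atrophy genes (15 of 18) reach furthest to the right, and antigen presentation (8 of 14) furthest to the left. The lists were chosen with earlier results of these data known.

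Genes of the connective tissue were lower in fasted SM. Of 38 collagens and matrix genes 15 were lower and 1 higher, with a median change of -0.28. Col6a3 averaged 6.74 ± 0.19 in fasted SM and 7.98 ± 0.16 in fed SM (SD, n = 4 and 5; change -1.24 ± 0.12, adjusted p = 1.64e-08), and Col15a1 changed by -1.37 and the collagen chaperone Serpinh1 by -0.82. The single rise was that of Lox (0.91), which cross-links collagen. With the adipocyte mean 10 of the 38 were lower, and with both means 4. The mean of 8 fibroblast markers was 8.32 to 8.75 in fasted SM and 8.71 to 9.08 in fed SM, with 4 of 8 lower. Those 4 were Lum, Col1a1, Col1a2 and Col3a1, which are matrix genes themselves. Pdgfra (0.05), Dcn (0.07), Pi16 (0.14) and Dpt (-0.38) were not called. The part of fibroblast content in these falls was not tested, and 5 genes (Col1a1, Col1a2, Col3a1, Dcn and Lum) are on both lists.

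Vessel signals fell more often than they rose, with 6 of 23 lower and 3 higher. Vegfa, the main growth factor of capillaries, was at 9.59, 9.34, 9.41 and 9.33 in fasted SM, against 10.29, 10.36, 10.23, 10.39 and 10.28 in fed SM (change -0.90 ± 0.09, adjusted p = 2.58e-08). Its receptor Kdr changed by -0.82, and the apelin receptor Aplnr, at 5.73, 5.45, 5.67 and 5.56 in fasted SM, against 7.49, 7.41, 7.49, 7.35 and 7.24 in fed SM, by -1.80 (adjusted p = 2.71e-11). The mean of 8 endothelial markers was 8.25 to 8.50 in fasted SM and 8.33 to 8.66 in fed SM, and 1 of the 8, Kdr itself, was lower.

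Antigen presentation genes were lower in a count that depended on the arrays used. Of 14 genes 8 were lower and 0 higher (12 and 0 at an unadjusted p under 0.05, median -0.44), but 0 of 14 were lower with fasted array 5 in the fit, and 6 with it and the lymphocyte marker mean in the model. With the adipocyte mean 5 were lower and with both means 2. H2-K1 was at 8.13, 7.88, 7.88 and 7.92 in fasted arrays 1 to 4 and at 9.71 in fasted array 5, against 8.50, 8.46, 8.84, 8.32 and 8.49 in fed SM (change -0.57 ± 0.08, adjusted p = 9.20e-06, -0.22, adjusted p = 0.526, with array 5, and -0.32, adjusted p = 0.0763, with both marker means). Interferon-stimulated genes, which share Psmb8, Psmb9 and Tap1 with that list, were lower in 8 of 24, in 3 of 24 with array 5 and in 3 of 24 with both marker means. Macrophage markers averaged 6.55 to 7.09 in fasted SM and 6.44 to 6.90 in fed SM, and 2 of 11 were higher, Cd163 (0.73) and Cd68 (0.52, adjusted p = 0.0387 in limma). Without fasted array 1 the change of Cd68 was 0.22 (adjusted p = 0.282), and its call was also lost without fed array 1, 3 or 5.

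Defence against oxidants rose. Of 26 antioxidant genes and targets of Nrf2 10 were higher and 1 lower. Srxn1, which repairs oxidised peroxiredoxins, was at 9.46, 9.19, 9.18 and 9.28 in fasted SM, against 7.64, 7.65, 7.60, 7.58 and 7.43 in fed SM (change 1.70 ± 0.08, adjusted p = 6.28e-15). Both subunits of the enzyme that starts glutathione synthesis rose, Gclm by 1.07 and Gclc by 1.06, as did haem oxygenase Hmox1 (1.45) and the factor Nfe2l2 (Nrf2) itself (0.79). The target Nqo1 (0.33) was not called.

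Metal genes formed a similar group, with 8 of 19 higher and 3 lower. Tfrc, which takes up iron-loaded transferrin, was at 7.65, 7.40, 7.34 and 7.47 in fasted SM, against 9.51, 9.27, 9.51, 9.59 and 9.53 in fed SM (change -2.02 ± 0.13, adjusted p = 6.04e-12). The iron store Ftl1 (0.56) and the metal importer Slc39a14 (1.04) rose, as did the metallothioneins Mt1 (1.27) and Mt2 (1.63). Mt2 was highest in fasted array 1 (11.34) and lowest in fasted array 4 (10.01), and both were above the fed arrays (8.71 to 9.52).

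Brakes of the cell cycle and targets of p53 rose in 11 of 27 cases and fell in 3. Cdkn1a was at 10.53, 10.66, 10.33 and 10.01 in fasted SM, against 8.08, 8.53, 8.21, 8.42 and 7.95 in fed SM (change 2.15 ± 0.17, adjusted p = 3.70e-10). Eda2r (2.05), Sesn1 (1.92) and Trp53inp1 (1.25), described above, are on this list too and were called higher. The pocket protein Rbl2 rose by 1.04, and cyclin Ccnd1 fell by 1.21, while the p53 targets Mdm2 (0.26), Bbc3 (-0.08) and Pmaip1 (-0.02) were not called. In the integrated stress response 6 of 18 genes were higher and 2 lower, with Ppp1r15a, which restarts translation, at 1.80. Among secreted factors of muscle 5 of 25 were higher and 5 lower, including the falls of Fgf6 (-1.23) and of Ostn (musclin, -1.14).

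The calls were also checked gene by gene with the marker means in the model, although a fit with 1 mean does not separate the contents. Of 263 called genes among those named, 25 lost the call with the adipocyte mean, 7 with the slow-fibre mean and 76 with both. Among the calls lost with the adipocyte mean were those of leptin and resistin, hormones of fat cells. Both are themselves among the markers averaged into that mean, so a smaller change with it was built in. Leptin (Lep) was at 5.10, 5.51, 5.95 and 3.81 in fasted SM, against 8.23, 7.12, 7.79, 4.85 and 5.72 in fed SM, with fed arrays 4 and 5 inside the fasted range, and changed by -1.66 ± 0.59 (adjusted p = 0.0441) without and by -0.74 (adjusted p = 0.354) with the adipocyte mean. Resistin (Retn) changed by -1.14 without and by -0.40 (adjusted p = 0.101) with it. In WAT itself Lep changed by -1.93 (adjusted p = 0.00966 in limma) and Retn by 0.07 (adjusted p = 0.931). The calls of Lep (without fasted array 1 or 4 or fed array 1, 2 or 3, adjusted p between 0.0761 and 0.197) and of Retn (without fasted array 4 or fed array 1 or 3, between 0.0651 and 0.0759) also rested on single arrays. The slow-fibre mean ended the call of Hspb7, a small heat shock protein (1.07, adjusted p = 0.0499, and 0.81, adjusted p = 0.129, with it), which was also lost without any 1 of fasted arrays 1 to 4 or fed arrays 3 to 5 (0.89 to 1.18, adjusted p between 0.0581 and 0.129).

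**Figure D4:**
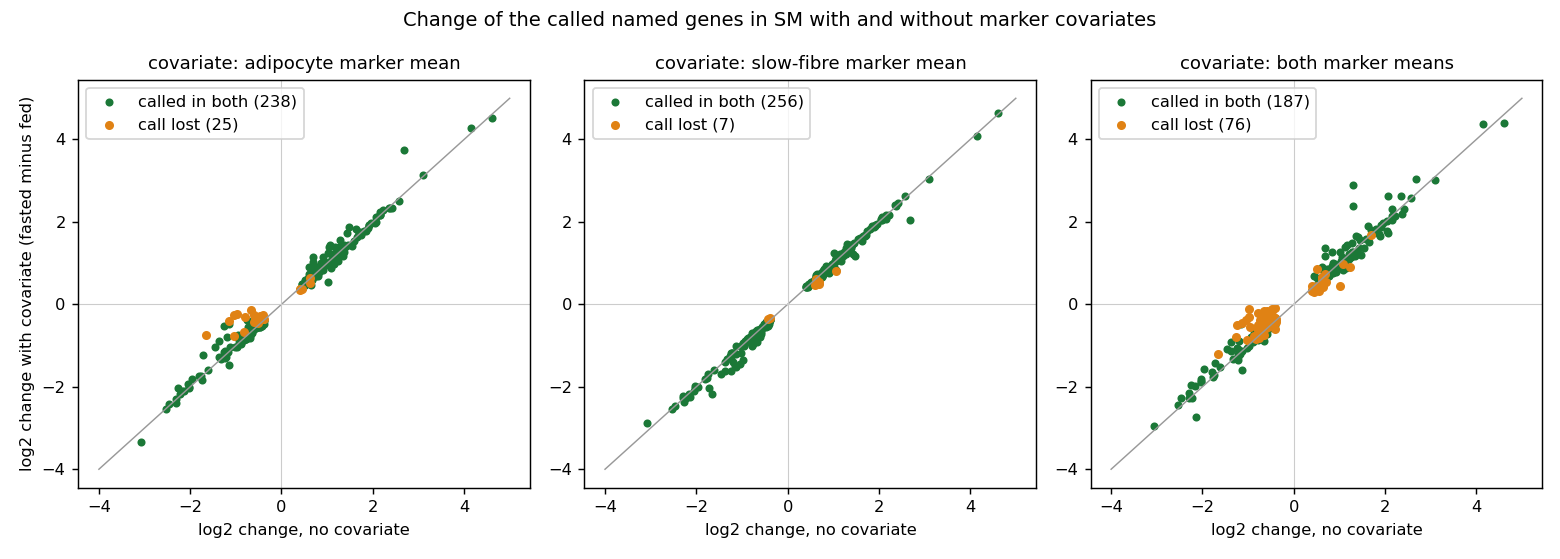
Log2 change (fasted minus fed) of the 263 called named genes in SM without a covariate (horizontal) and with the adipocyte marker mean, the slow-fibre marker mean or both in the model (vertical), with the grey line at equal values. Orange points are the 25, 7 and 76 genes that lost the call, and the green points lie along the line apart from a few such as Csrp3 (2.68 without and 3.74 with the adipocyte mean).

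The muscle response was set against that of WAT and LIV by testing the difference of the changes. The fit held no term for the mouse, so arrays of different tissues from the same mouse were taken as independent. In 2830 genes (15.1%) the change in SM differed from that in WAT, and in 2867 (15.3%) from that in LIV. Levels in WAT and LIV are not given here, so a change near 0 there can also be that of a gene hardly expressed in that tissue. Trim63 rose in SM and changed by -0.19 in WAT and 0.06 in LIV (differences 2.09 ± 0.15, adjusted p = 1.95e-10, and 1.84 ± 0.16, adjusted p = 2.95e-09). Depp1 rose by 2.89 in WAT too but changed by -0.19 in LIV (difference from LIV 4.80 ± 0.25, adjusted p = 3.97e-13). Eif4ebp1 changed by -0.01 in WAT and 0.02 in LIV (differences 1.27, adjusted p = 1.30e-09, and 1.23, adjusted p = 2.80e-09). For Fkbp5 no difference was called, at 0.30 ± 0.24 against WAT (adjusted p = 0.458) and -0.48 ± 0.25 against LIV (adjusted p = 0.204).

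Some genes changed with opposite signs. Gadd45a changed by 1.74 in SM and -0.68 in WAT, the melanocortin receptor Mc5r by -1.13 in SM and 3.13 in WAT (difference -4.26 ± 0.26, adjusted p = 7.30e-12), and Osgin1, an Nrf2 target, rose in SM and changed by -1.79 in LIV (difference 3.08 ± 0.18, adjusted p = 4.09e-12). The magnesium transporter Slc41a3 changed by -1.32 in SM and 1.81 in LIV, Aqp4 by -1.76 in SM and 0.91 in LIV, and Ppargc1a by -0.66 in SM and 0.89 in LIV (difference -1.55 ± 0.26, adjusted p = 0.000112). Vegfa fell in SM and changed by 0.60 in WAT (difference -1.49 ± 0.13, adjusted p = 2.65e-09). Zim1 rose in both SM (1.36) and WAT (4.44), by less in SM.

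**Figure D5:**
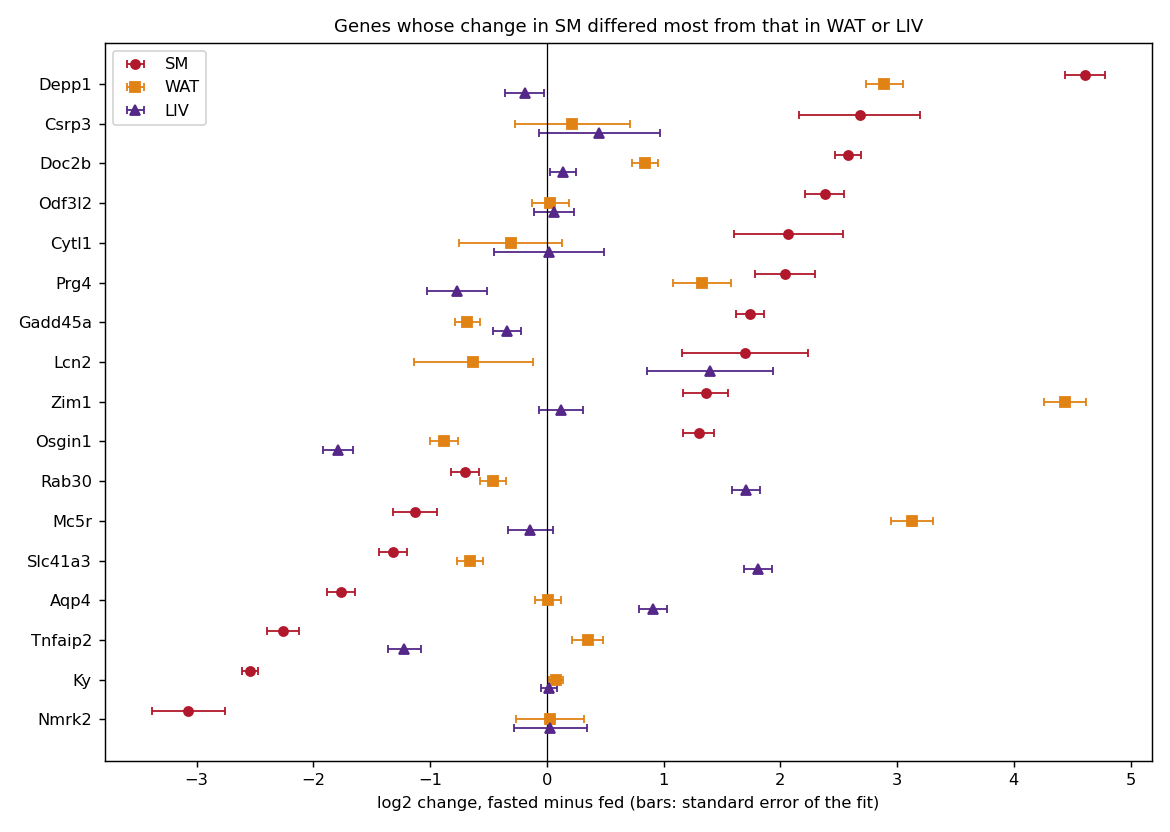
Log2 change (fasted minus fed, horizontal) of the 17 genes with the largest differences between SM and WAT or LIV, with the standard error of the fit, for SM (circles), WAT (squares) and LIV (triangles). Depp1 (4.61) is at the right and Nmrk2 (-3.07) at the left end for SM, and Mc5r, Slc41a3 and Osgin1 lie on opposite sides of 0 in SM and in WAT or LIV.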

How the data were processed

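RNA of each tissue was hybridised to Affymetrix whole-transcript gene arrays. The authors background-corrected, quantile-normalized and summarised the probes by RMA in Partek, and the deposited values are log2 signals per probe set. The number of arrays limits the precision. Of 28815 probe sets, 21153 name 1 gene, 1867 several and 5795 none here, and a gene took its probe set of highest mean (18781 genes).

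Group means of 6 groups (tissue by diet) were fitted over 28 arrays, without fasted SM 5 and fed LIV 4, with limma 3.58.1 in R 4.3.3. Calls needed a Benjamini-Hochberg adjusted p under 0.05 over all probe sets and 1.3-fold. On simulated data 59 of 67 changes of 1.5-fold and 66 of 67 of 2-fold were called, with 6 false calls. The simulated noise was independent, with the same spread in all groups and no shared shifts in fat or slow-fibre content. The 6 false calls are therefore no estimate for the real arrays. Each mouse gave 1 array per tissue.

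Members and lists were chosen with earlier results of these data known. Named were the 12 largest rises and falls without overlap, the 5 largest called changes within every list, members called against their list, 5 genes losing the call with a marker mean or with fasted SM 5, and the 5 largest tissue differences in each direction. Fbxo32, Foxo3, Klhl38, Atg13, Pdk4, Map3k6, Zfp36, Castor1, Polr1b, Acvr1b, Tgfbr1, Mlycd, Pnpla2, Lpin1, Flnc, Serpinh1, Ftl1, Rbl2 and the uncalled genes were added after their values were seen. Alternatives changed the arrays, covariates, variance model, normalization, thresholds and gene summary, and the fit with the lymphocyte marker mean was chosen after seeing the data. Marker means were centred within SM. Replicate numbers did not pair fasted with fed arrays.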

Additional observations from a re-analysis of the deposited data

Results flagged for a closer look

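Single arrays lay far from the rest of their group in 20 of 410 groups looked at (4.88%), and chance gives about 1 in 20. In fasted SM these were Ankrd1 in array 1 (8.30, others 4.75 to 5.24), Fbxo32 in array 1 (11.91, others 12.02 to 12.04), H2-K1 in array 1 (8.13, others 7.88 to 7.92), the collagen Col1a2 in array 1 (8.50), Mtor in array 2 (8.45, others 8.55 to 8.57), Psmd4 in array 3 (9.81, others 9.76), Dhcr7 in array 4 (6.05, others 5.78 to 5.81) and Ppargc1b in array 4 (6.28, others 6.89 to 6.92). Marker means stood apart for Schwann cells in fasted array 1 (4.99, others 4.13 to 4.18), tendon in fasted array 3 (4.49, others 4.97 to 5.06) and satellite cells in fasted array 4 (5.50, others 5.19 to 5.24). In fed SM they were Maff (5.06) and Sirt1 (7.50) in array 1, Tfrc (9.27) in array 2, Rrs1 (6.28) and Zim1 (7.23) in array 3, Dusp1 (10.71), Nop14 (7.64) and Pdp2 (5.62) in array 4 and Castor1 (5.12) in array 5. Fasted SM 5, which was left out of the main comparison, had a lymphocyte marker mean of 7.89, against 3.87 to 4.08 in fed SM.

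The change in SM differed from that in WAT, by the difference of changes in limma, for Ky (-2.63, adjusted p = 6.21e-17), Tnfaip2 (-2.61, adjusted p = 1.36e-10), Nmrk2 (-3.10, adjusted p = 6.64e-06), Mc5r (-4.26, adjusted p = 7.3e-12) and Zim1 (-3.09, adjusted p = 2e-09). It was above that in WAT for Gadd45a (2.42, adjusted p = 5.77e-11), Odf3l2 (2.35, adjusted p = 3.65e-08), the secreted Cytl1 (2.38, adjusted p = 0.00985), Csrp3 (2.45, adjusted p = 0.016) and lipocalin Lcn2 (2.32, adjusted p = 0.0303). The call of Lcn2 in SM was lost without fasted array 1 (1.64, adjusted p = 0.0525) or without fasted array 3 (1.37, adjusted p = 0.106) in limma. Against LIV the differences were 4.80 for Depp1 (adjusted p = 3.97e-13), 3.08 for Osgin1 (adjusted p = 4.09e-12), 2.82 for the lubricant Prg4 (adjusted p = 3.2e-06), 2.44 for Doc2b (adjusted p = 2.03e-11) and 2.32 for Odf3l2 (adjusted p = 7.8e-08). They were -3.12 for Slc41a3 (adjusted p = 4.71e-13), -3.10 for Nmrk2 (adjusted p = 1.05e-05), -2.67 for Aqp4 (adjusted p = 1.72e-11), -2.56 for Ky (adjusted p = 2.53e-16) and -2.42 for the GTPase Rab30 (adjusted p = 1.01e-10).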

How the results depend on the processing

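With both marker means in the model 1382 probe sets were called higher and 893 lower, and 1143 genes higher and 649 lower. With no minimum fold the counts were 3415 and 3101 probe sets and 2710 and 2234 genes, and with 1.5-fold 791 and 637 probe sets and 643 and 443 genes. Leaving out 1 SM array at a time gave 1656 to 2010 probe sets higher and 1421 to 1711 lower, and 1327 to 1607 genes higher and 1020 to 1180 lower. The other alternatives stayed within 1.5 times of the main counts. H2-Ab1 changed by -0.48 (adjusted p = 0.0474) and lost the call without any 1 of fasted arrays 2 to 4 or fed arrays 1 to 4 (adjusted p between 0.0551 and 0.152), and was at 0.06 with all 5 fasted SM arrays, 0.06 with all 30 arrays and 0.09 without fasted array 1 in place of array 5, and Acvr1c at 0.48 with the adipocyte mean and 0.74 with both means (-0.25 without, not called). Acvr1c is itself among the markers averaged into the adipocyte mean. The replicate numbers did not pair the arrays, since deviations of same-numbered fasted and fed arrays correlated at -0.00351 to 0.163 and 1 of 4 best with its own number. With the replicate block, SM arrays alone gave 1654 and 1477 probe sets and 1326 and 1074 genes.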
